A study of Mus musculus with 30 samples.

Results

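Haematopoietic stem cells of old and young male mice were compared here, each mouse having been joined by surgery to a partner of like age so that the animals shared a circulation (isochronic parabiosis). The comparison covers 10 RNA sequencing libraries out of 30 samples in the series, chosen by the library code in the sample title: 6 from old isochronic mice (OISO; 5 of strain B6, 22 months old, and 1 of strain BoyJ, 21 months old) and 4 from young isochronic mice (YISO; 2 B6 and 2 BoyJ, 8 to 12 weeks old), ages being those at the operation. BoyJ is a B6 congenic strain with a different allele of Ptprc, the gene of CD45, which lets partners' blood cells be told apart. Every mouse of both groups had undergone surgery and carried a partner. The contrast therefore asks how stem cells of the 2 ages differ when the operation and the partner's age class are matched to the animal's own age. The old group rests on a single BoyJ library. The labels used here do not say which mice were partners, so both animals of a pair may be among the libraries of a group.

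Haematopoietic stem cells reside in the bone marrow, divide rarely, and replace all blood lineages. In old mice the pool of cells with stem cell surface markers is known to be larger, to repopulate less well per cell, and to be biased toward platelets and myeloid cells. The known expression changes of age include surface molecules such as P-selectin, platelet genes and adhesion molecules. Parabiosis is used to ask whether factors in the blood of one animal alter the cells of the other, and isochronic pairs are the control in which age is the same on both sides.

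For 3 of the 10 libraries the title and the description disagree: the count column whose code stands in the title is named in the description of a sample of another group. These are OISO B6 replicate 1 (named under a young unjoined BoyJ sample), OISO B6 replicate 2 (named under an old heterochronic B6 sample) and YISO BoyJ replicate 1 (named under a young unjoined B6 sample). Each result below was therefore also computed on the 7 libraries on which both labels meet, 4 old and 3 young, and that value is given where it changes the call. P-selectin (Selp) stood at 162 to 246 CPM in all 6 libraries with an old title and at 10.3 to 48 CPM in the 4 with a young title. Since Selp marks age only, it bears on OISO B6 replicate 1 alone, whose description names a young sample and which stood at 246 CPM; the 2 labels of each of the other 2 libraries are of the same age class, and Selp cannot tell them apart. CPM are counts scaled to a common library size with TMM factors. The libraries held 12269259 to 29529703 counts. Stem cell markers were present in every library, with Kit at 680 to 964 CPM, and Cd48, which such sorts exclude, was at 0.101 to 7.42 CPM. Among markers of other cells, Cd79a and Pax5 of B cells were at 0 in all 10 libraries and Dcn of stroma in 9. Other markers of such cells were found in every library. Cd79b of B cells was at 6.97 to 28.0 CPM and Col1a2 of stroma at 2.45 to 16.5 CPM. Lyz2 of monocytes was at 157 to 271 CPM and Car1 of erythroid cells at 3.22 to 196 CPM. Of 8 endothelial markers 5 were tested and 0 called, with a median log2 difference of 0.06. Cdh5 was at 0 to 0.935 CPM. Pecam1 was at 59.2 to 109 CPM in OISO and 44.3 to 77.4 CPM in YISO, and Tek at 87.1 to 114 and 62.0 to 124 CPM. Kdr alone of the 5 did not overlap, at 9.82 to 20.5 CPM in OISO and 1.51 to 8.71 CPM in YISO. The 9 neutrophil markers together took 0.0474% of the counts in OISO B6 replicate 1 and 0.0761% in OISO B6 replicate 5, against 0.000212% to 0.0127% in the other 8 libraries. Of the 7 of them tested, 0 were called, with a median log2 difference of 3.64.

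Old stem cells differed from young ones in 425 of 14278 genes tested (2.98%; edgeR quasi-likelihood test with a strain term, Benjamini-Hochberg adjusted p under 0.05). Of these, 260 (1.82% of genes tested) were higher in OISO and 165 (1.16%) were lower. The rises were the larger changes: their median log2 fold change was 1.72, and 188 exceeded 2-fold and 104 exceeded 4-fold. The falls had a median log2 fold change of -0.77, with 44 over 2-fold and 9 over 4-fold, and lay in more abundant genes (median of mean log2 CPM 6.31 against 4.84 for the rises). The median over all genes tested was -0.0048. The groups did not overlap in 207 of the 260 risers and in 95 of the 165 fallers, and over all genes tested in 2.81% with OISO higher and 1.62% with OISO lower. Counts of list members below are to be read beside these shares and the 1.82% called higher and 1.16% called lower. Where a fold is given below it is the ratio of group means, and log2 fold changes come from the fit with their standard error (SE).

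**Figure D1:**
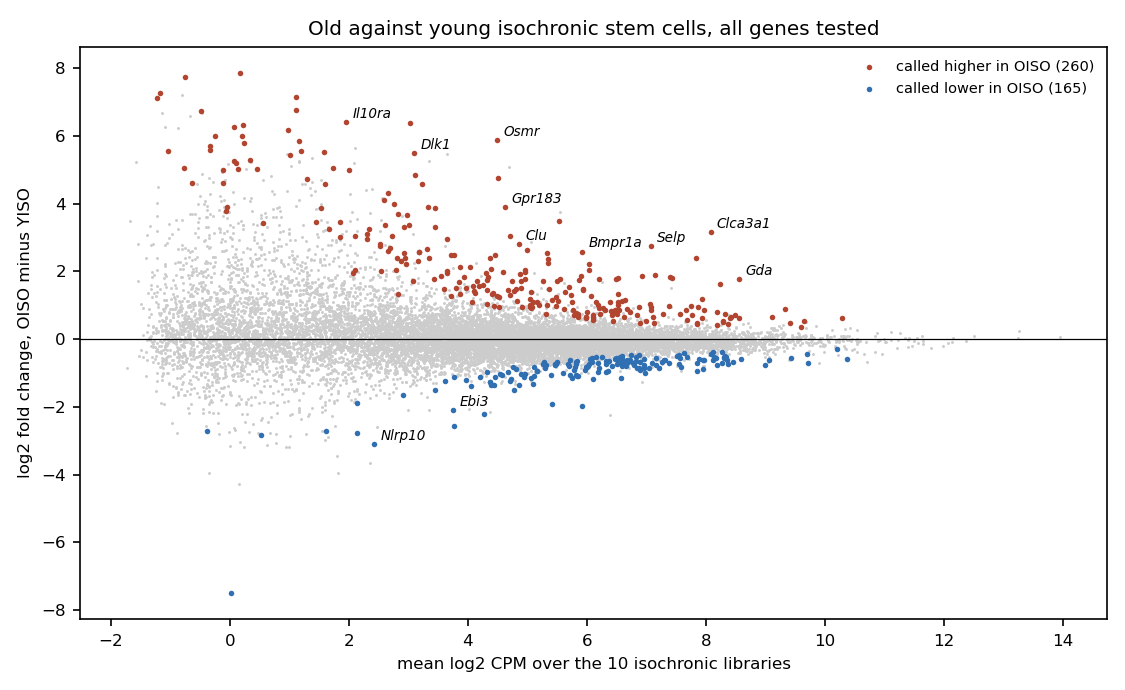
Log2 fold change (OISO minus YISO) against mean log2 CPM for all 14278 genes tested in 10 libraries. Red points mark the 260 genes called higher and blue points the 165 called lower. The red points spread to higher fold changes and lower abundance than the blue ones.

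The calls rest on few libraries, and more so for the genes that were lower. With only the 7 libraries on which labels meet, 77 genes (0.548% of 14048 tested) were called higher and 7 (0.0498%) lower. All 258 risers and all 164 fallers that could be tested there kept their sign, with medians of 1.67 and -0.75, and 75 and 7 of them were called. Leaving out 1 library moved the total of 425 to 225 without OISO B6 replicate 1, 243 without replicate 2, 255 without replicate 3, 233 without replicate 5, 254 without YISO B6 replicate 1 and 206 without YISO B6 replicate 2.

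Among the risers were 23 of a list of 28 genes known to be raised in aged mouse stem cells, many of them surface proteins and enzymes. The list was chosen with earlier results of these data known, so its counts and shares are not an independent check. All 28 were tested and had a positive fold change, with a median of 1.83. In the 7 libraries 17 were called, and Itgb3, Ghr, Fhl1, Nupr1, Rorb and Ptger4 were not (adjusted p = 0.0508 to 0.154 by edgeR). Together the 28 genes took 0.381% to 0.513% of the counts in OISO libraries and 0.145% to 0.179% in YISO libraries, so the groups did not overlap. The 5 that were not called were Ramp2 (log2 difference 5.22, adjusted p = 0.0696 by edgeR), Zfp334 (2.10), Dhrs3 (1.84), Tc2n (1.11) and Mpdz (0.35). Below, young values are given in the order BoyJ replicates 1 and 2, then B6 replicates 1 and 2, and old values as the lowest, median and highest of 6.

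Clca3a1 (chr3:144729677-144760977, minus strand, GRCm38), a member of the family of calcium-activated chloride channel regulators, had the smallest adjusted p of all genes. Its level was 58.6, 81.4, 49.5 and 33.5 CPM in YISO and 345, 373 and 628 CPM in OISO. The lowest old library lay far above the highest young one. The means were 413 ± 107 CPM (SD, n = 6) and 55.7 ± 20.0 CPM (SD, n = 4), a 7.42-fold difference. The fitted log2 fold change was 3.16 (SE 0.14, adjusted p = 5.56e-08 by edgeR). Near-identical members of this gene family sit beside it, and counting could have split reads between them.

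Gda, guanine deaminase of purine breakdown (chr19:21391307-21473445, minus strand), was at 195, 187, 128 and 153 CPM in YISO and at 418, 539 and 612 CPM in OISO (log2 fold change 1.77, SE 0.13). Enpp5, a membrane protein of the ectonucleotide pyrophosphatase family, was at 54.7, 67.4, 43.3 and 59.2 CPM in YISO against 159, 204 and 214 CPM in OISO (1.89, SE 0.14). Both had an adjusted p of 1.42e-05 by edgeR, and in neither did an old library reach down to a young one. Neo1, the receptor neogenin, which binds netrins and repulsive guidance molecules, rose from 29.4 ± 5.37 CPM (SD, n = 4) to 82.1 ± 12.7 CPM (SD, n = 6), with an adjusted p of 0.00103 by edgeR. Plscr2 (3.48), Wwtr1 (2.64; the Hippo pathway co-activator TAZ), Ptprk (2.47; a receptor tyrosine phosphatase), Sult1a1 (2.38; a sulfotransferase), Tm4sf1 (4.00) and Nupr1 (1.72; a stress-induced chromatin protein) were also called higher, the values being log2 fold changes.

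**Figure D2:**
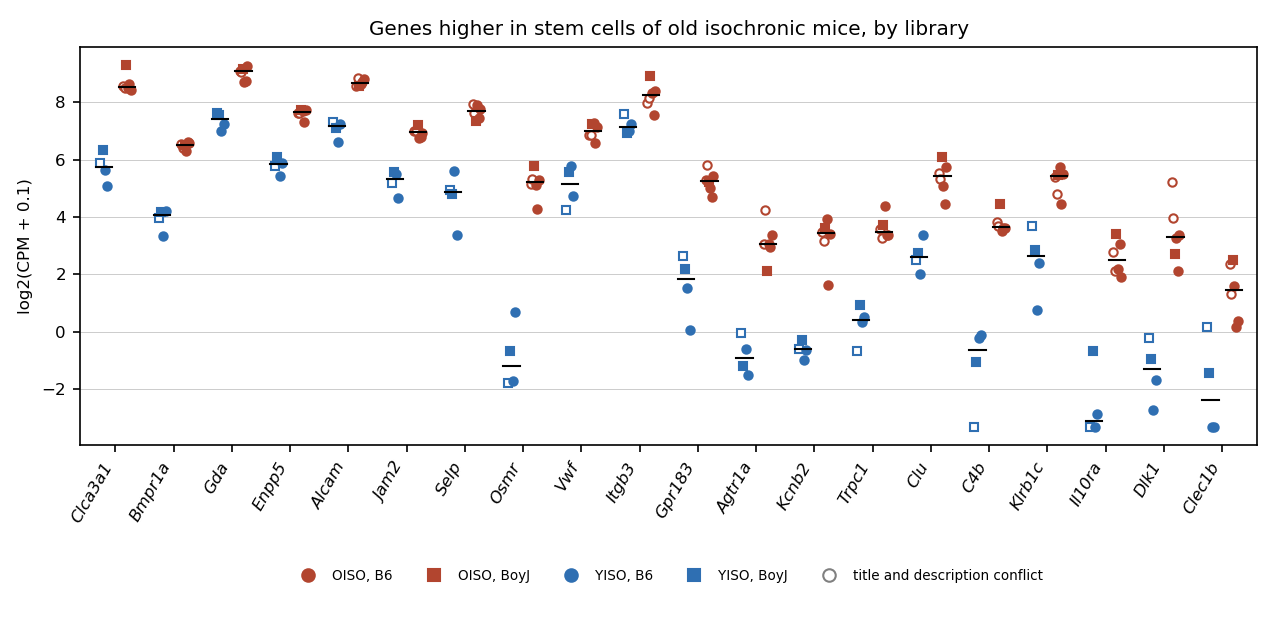
Log2(CPM + 0.1) of 20 genes called higher in OISO, 1 point per library, blue for YISO (n = 4) and red for OISO (n = 6). Circles are B6, squares BoyJ, hollow points the 3 libraries with conflicting labels, and black bars group medians. The hollow points lie with the other libraries of their titled age in Clca3a1, Gda, Osmr and C4b, while Itgb3 and Clec1b overlap between the groups.

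Adhesion molecules and platelet genes rose in part. The lists share members: Alcam, Jam2, Selp, Neo1, Itgb3, Cavin2 and Vwf were already counted among the aged stem cell genes. Of 41 junction and adhesion molecules, 37 were tested and 7 were called higher (Alcam, Jam2, Selp, Neo1, Itgb3, Itga6 and Cldn5) and 0 lower, with a list median of 0.25. Alcam (CD166), which binds CD6 and itself, was at 157, 137, 98.8 and 152 CPM in YISO and at 375, 406 and 456 CPM in OISO. Jam2, a junctional adhesion molecule, was at 36.3, 46.8, 44.8 and 25.2 CPM in YISO and at 108, 124 and 147 CPM in OISO. Old libraries were about equally high in both genes and all stood above the young ones. Their log2 fold changes were 1.63 (SE 0.14, adjusted p = 4.52e-05) and 1.78 (SE 0.17, adjusted p = 0.000153) by edgeR. Itgb1 (-0.09), Itga4 (-0.24) and Cd44 (-0.38), receptors for fibronectin and hyaluronan that are abundant on blood cells, were not called. In the 7 libraries 6 adhesion genes were called, among them a gene not called with all 10 libraries. Itgb3 and Itga6 were not called there (adjusted p = 0.0508 and 0.109 by edgeR).

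Of 22 megakaryocyte and platelet genes, all tested, 6 were called higher (Selp, Cavin2, Vwf, Itgb3, Clec1b and Gp5) and 0 lower, and the median was 0.45. In the 7 libraries 3 were called, and Itgb3, Clec1b and Gp5 were not (adjusted p = 0.0508, 0.0668 and 0.212 by edgeR); 4 were called without YISO BoyJ replicate 2, without YISO B6 replicate 2, and without OISO B6 replicates 2 or 3. Selp, which platelets and endothelium expose for leukocyte rolling (chr1:164115264-164150026, plus strand), was at 30.6, 27.8, 48 and 10.3 CPM in YISO and at 162, 206 and 246 CPM in OISO (log2 fold change 2.76, SE 0.34, adjusted p = 0.00095 by edgeR). Vwf, von Willebrand factor, was at 18.7, 47.4, 54.6 and 26.3 CPM in YISO and at 96.3, 128 and 156 CPM in OISO (1.81, SE 0.28). Relative to their mean, young libraries varied by more than old ones in these genes, and the groups still did not overlap. Itgb3, the beta-3 integrin chain of the platelet fibrinogen receptor, overlapped: YISO BoyJ replicate 1 stood at 193 CPM and the lowest old library at 186 CPM. The partner chain Itga2b (0.55) and the platelet chemokine Pf4 (0.32) were not called.

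Receptors for cytokines, growth factors and small ligands gave some of the steepest differences. Of 43 cytokine and growth factor receptors tested, 5 were called higher (Bmpr1a, Osmr, Ghr, Ptger4 and Pdgfrb), 0 were lower, and the median was 0.19. Of these, Osmr, Ghr and Ptger4 are also on the list of aged stem cell genes. Bmpr1a, a type I receptor for bone morphogenetic proteins (chr14:34410734-34503341, minus strand), was at 15.7, 18.1, 10.1 and 18.3 CPM in YISO and at 78.4, 92.1 and 99.0 CPM in OISO. This 5.82-fold difference (log2 fold change 2.59, SE 0.20, adjusted p = 1.42e-05 by edgeR) had one of the tightest old groups, 90.3 ± 7.88 CPM (SD, n = 6). Osmr, the oncostatin M receptor chain that pairs with gp130 (chr15:6813577-6874969, minus strand), was at 0.188, 0.530, 0.2 and 1.5 CPM in YISO and at 19.5, 36.9 and 54.2 CPM in OISO. It was close to absent in 3 young libraries and moderate in every old one (log2 fold change 5.88, SE 0.57, adjusted p = 0.000147 by edgeR). The growth hormone receptor Ghr rose from 28.2 ± 3.95 CPM (SD, n = 4) to 55.9 ± 8.89 CPM (SD, n = 6). Pdgfrb, a receptor found on stroma, overlapped between groups, since YISO BoyJ replicate 1 stood at 12.5 CPM and the old median was 12.5 CPM, and it was not called in the 7 libraries (adjusted p = 0.13 by edgeR) or when any 1 library other than YISO B6 replicate 2 was left out. The 5 receptor calls became 3 without OISO B6 replicate 1, 2, 3 or 5 or without either YISO B6 library, and 2 in the 7 libraries, where Ghr and Ptger4 had adjusted p-values of 0.0723 and 0.154. Of 25 tested genes of TGF-beta and BMP signalling, Bmpr1a and Skil, a repressor of SMAD signalling, were called higher, with a list median of 0.09. Bmpr1a is thus counted again, and 1.82% of all genes tested were called higher. These 2 became 1 without OISO B6 replicate 1 or either YISO B6 library, and 4 without YISO BoyJ replicate 2. Of 22 tested genes of JAK-STAT signalling, which carries the signal of Osmr, 0 were called and the median was 0.10. In 2 of the 22 the groups did not overlap with OISO higher, beside 2.81% of all genes tested. Jak1 stood at 635 ± 46.6 CPM (SD, n = 6) in OISO and 582 ± 29.1 CPM (SD, n = 4) in YISO.

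G protein coupled receptors were called in 1 direction. Of 57 adhesion and orphan receptors tested, 4 were called higher (Gpr183, Adgrg6, Adgrg2 and Adgre5), with a median of 0.27. Of 67 receptors with known ligands, 4 were called higher (Agtr1a, Lpar6, Hrh2 and Ptger4), with a median of 0.14. The share called higher over all genes tested was 1.82%, and Ptger4 was already counted above. Gpr183, the oxysterol receptor EBI2 that guides immune cell migration, was at 6.13, 4.43, 2.76 and 0.930 CPM in YISO and at 25.6, 37.7 and 56.3 CPM in OISO (log2 fold change 3.89, SE 0.45, adjusted p = 0.000587 by edgeR). Agtr1a, the type 1 angiotensin II receptor, was at 0.866, 0.341, 0.551 and 0.250 CPM in YISO and at 4.21, 8.28 and 18.8 CPM in OISO (4.10, SE 0.64). The old values of Agtr1a spread widely, yet the lowest was above every young one. Hrh2, the histamine H2 receptor, overlapped, with 17.8 CPM in YISO BoyJ replicate 2 and 16.9 CPM in the lowest old library. The 4 adhesion and orphan receptors became 2 without OISO B6 replicate 1, 2 or 3 or YISO B6 replicate 2. The 4 receptors with known ligands became 2 without OISO B6 replicate 1, 2, 3 or 5 or either YISO B6 library. In the 7 libraries the calls were 2 and 1, the medians were 0.26 and -0.03, and Adgrg2, Adgre5, Lpar6, Hrh2 and Ptger4 were not called (adjusted p = 0.107 to 0.232 by edgeR).

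Single ion channel genes were called, at shares of their lists near the 1.82% of all genes tested that were called higher, so the counts say nothing particular of ion channels. Kcnb2, a delayed rectifier potassium channel, was the 1 of 35 potassium channel genes called: 0.565, 0.719, 0.401 and 0.537 CPM in YISO against 3.02, 10.7 and 15.0 CPM in OISO (log2 fold change 4.30, SE 0.53, adjusted p = 0.00095 by edgeR). Of 76 other channel genes tested, Trpc1, a non-selective cation channel, and Gabra4, a GABA-A receptor subunit, were called. Trpc1 was at 0.527, 1.82, 1.15 and 1.32 CPM in YISO and at 9.51, 11.1 and 20.6 CPM in OISO (3.37, SE 0.46). Kcnb2 and Trpc1 were therefore low in all young libraries and an order of magnitude higher in the old group means. Gabra4 had 10 counts in YISO BoyJ replicate 1 and 0 in the other 3 young libraries, so its size is poorly set. The 2 calls among other channels became 1 without either YISO B6 library and 4 without OISO BoyJ replicate 1.

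Retinoid metabolism gave 3 calls among 17 tested genes, all higher, beside 1.82% of all genes tested, with a list median of 0.15. Aldh1a1, a retinaldehyde dehydrogenase that makes retinoic acid, was at 395, 486, 453 and 405 CPM in YISO and at 709, 777 and 881 CPM in OISO (log2 fold change 0.88, SE 0.09, adjusted p = 0.000199 by edgeR). Cyp26b1, which degrades retinoic acid, was at 19.8, 25.8, 13.1 and 23.4 CPM in YISO and at 55.1, 95.3 and 141 CPM in OISO (2.22, SE 0.34). The receptor Rarb, itself a known retinoic acid target, was at 3.54, 4.35, 2.46 and 1.00 CPM in YISO and at 5.54, 14.7 and 19.9 CPM in OISO (2.65, SE 0.52). Enzymes of both synthesis and degradation were thus among the called genes, and Rara (1.08), Rxra (0.04) and Rarg (0.01) were not. Rarb was not called in the 7 libraries (adjusted p = 0.13), and the 3 calls became 5 without YISO BoyJ replicate 2.

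Complement genes Clu and C4b were the 2 called of 12 tested, and they were called in every alternative run. Both were higher, as were 1.82% of all genes tested. Clu, clusterin, a secreted chaperone that also binds complement, was at 5.49, 6.66, 3.91 and 10.2 CPM in YISO and at 21.6, 43.5 and 68.3 CPM in OISO (log2 fold change 2.81, SE 0.35, adjusted p = 0.00105 by edgeR). C4b was at 0, 0.379, 0.752 and 0.823 CPM in YISO and at 11.3, 12.5 and 21.8 CPM in OISO (4.84, SE 0.68). It has a near-identical neighbour, C4a, with which it could share reads. Klrb1c (NK1.1), a receptor known from natural killer cells, was at 12.8, 7.16, 1.60 and 5.22 CPM in YISO and at 21.7, 42.7 and 53.7 CPM in OISO (3.03, SE 0.46, adjusted p = 0.00321 by edgeR). Of the other natural killer and T cell markers in the table, Nkg7 was at 8.33 to 25.3 CPM in OISO and 9.66 to 36.2 CPM in YISO, and Cd3d at 1.92 to 3.32 and 1.75 to 3.16 CPM, so the ranges of the groups overlapped in both.

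The largest fold changes belonged to genes that were near 0 in young libraries. By log2 fold change the 12 largest rises, leaving out genes whose mean log2 CPM was under 1, were Adgrg6 (7.15), Limch1 (6.78), Il10ra (6.41), Tmem215 (6.39), Osmr (5.88), Synpo (5.85), Spint1 (5.57), Amy1 (5.52), Dlk1 (5.48), Clec1b (5.44), Emp2 (5.04) and Asxl3 (4.98). Limch1, an actomyosin regulator, had 475 counts in the 6 old libraries and 1 in the 4 young ones, a ratio per read of 368 with a 95% counting interval of 65.7 to 14554. Adgrg6 had 415 against 2, a ratio of 161 with an interval of 44.2 to 1331. These intervals cover counting error only, and fitted folds of such genes depend on the prior count. Of the 12, 5 were called in the 7 libraries (Adgrg6, Il10ra, Osmr, Dlk1 and Asxl3), and the other 7 had adjusted p-values of 0.054 (Limch1) to 0.175 (Amy1) by edgeR.

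Il10ra, the ligand-binding chain of the interleukin 10 receptor, was at 0, 0.530, 0 and 0.0358 CPM in YISO and at 3.62, 5.61 and 10.5 CPM in OISO (adjusted p = 0.0041 by edgeR). Dlk1, a paternally expressed imprinted relative of the Notch ligands, was at 0.753, 0.416, 0.0501 and 0.215 CPM in YISO and at 4.2, 9.79 and 37.6 CPM in OISO (adjusted p = 0.00663). It was the 1 called gene of 22 imprinted genes tested, whose median was 0.49. Igf2 (2.14, adjusted p = 0.0607) and Asb4 (2.03, adjusted p = 0.0541), also imprinted, were not called. The count for this list was 2 without OISO B6 replicate 4 and 3 without OISO BoyJ replicate 1 or YISO BoyJ replicate 2. Clec1b, the podoplanin receptor CLEC-2 of platelets, and Amy1, salivary amylase with near-identical copies, overlapped between the groups.

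Some genes of stem cell identity and of myeloid priming were called, and none of lymphoid or erythroid priming. Among all genes tested, 1.82% were called higher and 1.16% lower. Of 28 identity genes tested, 1 was called higher and 1, Cd34, lower. On this list 24 genes were positive, the median was 0.34, and 4 did not overlap with OISO higher, beside 2.81% of all genes tested. Cd34, a sialomucin that is low on long-term stem cells of adult mice, was at 158, 191, 147 and 229 CPM in YISO and at 56.2, 82.6 and 124 CPM in OISO (log2 fold change -0.998, SE 0.21, adjusted p = 0.0246 by edgeR). Neither call held in the 7 libraries, where the log2 difference of Cd34 was -0.95 (adjusted p = 0.115). The higher call was lost without any 1 of the 6 OISO libraries or YISO B6 replicate 2, and the lower call without OISO B6 replicate 1, 3 or 5 or YISO B6 replicate 2. Slamf1 (CD150), whose high level marks myeloid-biased stem cells, was at 38, 81.1, 82.6 and 35.5 CPM in YISO and at 88.0, 101 and 130 CPM in OISO. Its groups did not overlap, but its log2 difference of 0.77 was not called (adjusted p = 0.144). Hlf (0.03), Meis1 (0.06) and Kit (0.08) were within 0.1 of 0 on the log2 scale. In bulk libraries such as these, more cells of a type and more RNA per cell cannot be told apart.

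Of 18 myeloid priming genes tested, 2 were called higher, Prtn3 (1.28, adjusted p = 0.00155) and Cebpd (1.95, adjusted p = 0.0347) by edgeR. Prtn3, the granule protease proteinase 3, was at 38.8, 38.8, 41.6 and 28.5 CPM in YISO and at 66.7, 90.9 and 98.0 CPM in OISO. Elane and Mpo, granule genes that lie with it in neutrophil precursors, were at 0.111 to 24.6 and 1.19 to 185 CPM in OISO, and at 0 to 4.29 and 1.70 to 51.0 CPM in YISO, and were not called. The 2 calls became 1 without any 1 library other than OISO B6 replicate 4 or YISO BoyJ replicate 2, and in the 7 libraries Cebpd was not called (adjusted p = 0.202). Prtn3 was thus steady in the old group while those genes varied widely. Of 15 lymphoid priming genes 0 were called, with 10 negative and a median of -0.22. Dntt (-2.49) and the cytokine receptor Flt3 (-0.58, adjusted p = 0.303) were on the negative side. Of 13 erythroid priming genes 0 were called, with a median of -0.18.

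The genes that were lower in old stem cells were, in the lists examined, mostly those of DNA replication and cell division. The replication and mitosis lists held 14 and 9 of the 165 genes called lower, so most fallers were on neither list. Of 38 DNA replication genes, all tested, 14 were called lower and 0 higher, all 38 had a negative fold change, and the median was -0.69. Their summed share was 0.228% to 0.302% of counts in OISO and 0.332% to 0.467% in YISO, without overlap. Cdc45, which unwinds DNA with the MCM helicase (chr16:18780447-18811987, minus strand), was at 33.2, 32.6, 51.3 and 61.1 CPM in YISO and at 15.5, 17.7 and 24.8 CPM in OISO (log2 fold change -1.37, SE 0.21, adjusted p = 0.00322 by edgeR). Tyms, thymidylate synthase, was at 112, 82.2, 111 and 139 CPM in YISO and at 54.1, 60.2 and 72.1 CPM in OISO (-0.94, SE 0.14). Lig1, the ligase that joins Okazaki fragments, was at 177, 147, 179 and 222 CPM in YISO and at 76.1, 94.3 and 129 CPM in OISO (-0.85, SE 0.16). In these 3 genes every young library stood above every old one, and the B6 young libraries were the highest in Cdc45. The large subunit of ribonucleotide reductase, Rrm1, overlapped at 219 CPM in YISO BoyJ replicate 2 and 237 CPM in the highest old library. The other 10 called were Mcm3, Mcm5, Mcm6, Mcm7, Pold3, Pole, Pola1, Prim2, Pcna and Gins1, with log2 fold changes between -1.13 and -0.59.

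Of 28 mitosis genes tested, 9 were called lower (Ube2c, Cenpf, Bub1b, Tpx2, Aurkb, Ect2, Kif11, Anln and Birc5), all 28 were negative, and the median was -0.75. Ube2c, the ubiquitin-conjugating enzyme of the anaphase-promoting complex, was at 128, 114, 182 and 115 CPM in YISO and at 72.4, 79.1 and 85.7 CPM in OISO (-0.80, SE 0.15, adjusted p = 0.0101 by edgeR). Cenpf, a kinetochore protein, was at 221, 223, 543 and 259 CPM in YISO and at 155, 170 and 209 CPM in OISO (-0.94, SE 0.19). YISO B6 replicate 1 was the highest library in both. The mitosis share was 1.02% in that library (95% Wilson interval 1.015% to 1.023%), 0.474% to 0.531% in the other 3 young libraries and 0.343% to 0.507% in OISO, so the groups overlapped. Mki67, the proliferation marker, was at 1486, 1646, 3468 and 1769 CPM in YISO and at 1141, 1317 and 1841 CPM in OISO, and was not called (log2 difference -0.68, adjusted p = 0.0874).

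These counts of fallers depend on single libraries. The 165 lower calls became 51 without YISO B6 replicate 2, and 58, 66, 70 and 59 without OISO B6 replicates 1, 2, 3 and 5. Without OISO BoyJ replicate 1 they became 244, more than the 237 higher calls there. Without YISO B6 replicate 1, 81 genes (0.555% of 14591 tested) were called lower, 0 of 28 mitosis genes were, 27 of them were negative, and their median was -0.39, while 8 of 38 replication genes were called with a median of -0.62. Replication calls numbered 3 without YISO B6 replicate 2, and 7 without YISO BoyJ replicate 1 or OISO B6 replicate 1, 3 or 5, and 8 without OISO B6 replicate 2. Mitosis calls numbered 3 or 4 without OISO B6 replicate 1, 2, 3 or 5 or YISO B6 replicate 2, and 5 without YISO BoyJ replicate 2, and 18 without OISO BoyJ replicate 1. In the 7 libraries 0 genes of either list were called, with medians of -0.59 for replication and -0.70 for mitosis, beside 7 genes called lower in all. The adjusted p-values there lay between 0.0538 and 0.295 for the 14 replication genes and between 0.0538 and 0.218 for the 9 mitosis genes (edgeR).

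**Figure D3:**
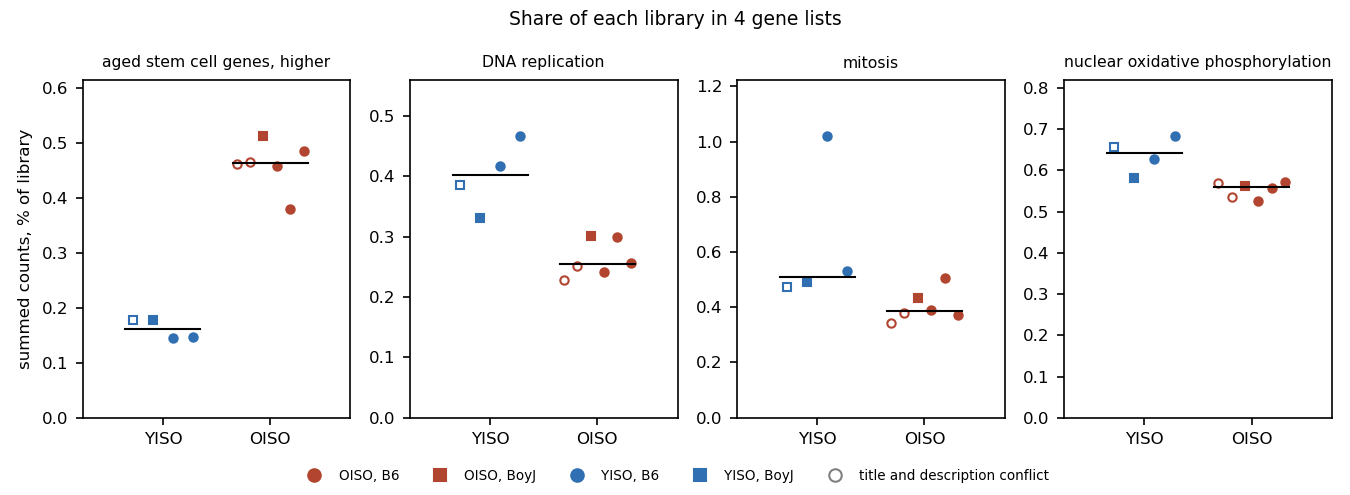
Summed counts of 4 gene lists as a percentage of each library's counts, in YISO (blue, n = 4) and OISO (red, n = 6). Circles are B6, squares BoyJ, hollow points libraries with conflicting labels, and black bars medians. Aged stem cell genes, replication genes and nuclear oxidative phosphorylation genes separate the groups, while mitosis genes overlap and stand at 1.02% in YISO B6 replicate 1.

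Calls among repair and histone genes were all lower, beside 1.16% of all genes tested called lower, and none held in the 7 libraries. Of 23 genes of homologous recombination and Fanconi repair, H2afx, Bard1, Brca1 and Rad54l were called lower, all 23 were negative and the median was -0.59, but 0 were called without YISO B6 replicate 1, where the median was -0.38, and 2 without OISO B6 replicate 1, 2, 3 or 5 or YISO B6 replicate 2, and 9 without OISO BoyJ replicate 1. Of 64 replication-dependent histone genes tested, 62 were negative with a median of -0.52, and Hist1h2bf and Hist1h2bl were called. Hist1h2bf was at 24.7, 21.5, 25.6 and 24.8 CPM in YISO and at 7.30, 8.81 and 15.4 CPM in OISO (-1.22, SE 0.25, adjusted p = 0.0211 by edgeR). The 2 histone calls became 0 without OISO B6 replicate 1 or 5 or either YISO B6 library, 1 without OISO B6 replicate 2 or 3, 4 without YISO BoyJ replicate 2 and 7 without OISO BoyJ replicate 1. Among the 7 libraries the 4 repair genes had adjusted p-values of 0.0854 to 0.159 and the 2 histone genes of 0.17 and 0.124 by edgeR, with list medians of -0.51 and -0.52. Histone genes resemble each other closely, and reads could have been assigned between copies. Among regulators of G1, the pocket proteins went opposite ways: Rbl2 (p130), which acts in resting cells, rose from 193 ± 13.3 CPM (SD, n = 4) to 256 ± 13.0 CPM (SD, n = 6), and Rbl1 (p107), itself an E2F target, fell from 131 ± 28.1 to 86.5 ± 12.0 CPM. Their adjusted p-values were 0.0236 and 0.0374 by edgeR, and neither was called in the 7 libraries (adjusted p = 0.133 and 0.203). Higher calls on this list became 0 without OISO B6 replicate 1 or 5 or either YISO B6 library, 2 without YISO BoyJ replicate 1 and 3 without OISO BoyJ replicate 1, and lower calls 0 without OISO B6 replicate 1, 2, 3 or 5 or either YISO B6 library. Cdkn1a (p21), a cyclin-dependent kinase inhibitor, was at 10.0, 2.16, 0.351 and 1.00 CPM in YISO and at 5.72, 8.04 and 27 CPM in OISO and was not called (3.11, adjusted p = 0.116).

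Genes of DNA methylation were among the fallers. Of 23 tested genes of DNA methylation and Polycomb, Uhrf1, Dnmt1 and Dnmt3b were called lower and Ezh1 higher, with a list median of -0.11. The shares over all genes tested were 1.16% lower and 1.82% higher. Uhrf1, which recruits Dnmt1 to newly copied DNA, was at 63.6, 78.2, 103 and 155 CPM in YISO and at 35.3, 44.9 and 61.4 CPM in OISO (log2 fold change -1.19, SE 0.20, adjusted p = 0.00663 by edgeR). Dnmt1, the maintenance methyltransferase, was at 341, 332, 501 and 450 CPM in YISO and at 231, 266 and 308 CPM in OISO (-0.62, SE 0.12). Dnmt3b, a de novo methyltransferase, was at 103, 118, 110 and 91.9 CPM in YISO and at 59.8, 61.9 and 85.6 CPM in OISO (-0.66, SE 0.15). None of the 3 overlapped between groups. Ezh1, a Polycomb histone methyltransferase that resting cells also use, rose from 49.2 ± 8.77 CPM (SD, n = 4) to 89.8 ± 19.5 CPM (SD, n = 6), and its relative Ezh2 was lower without a call (-0.60, adjusted p = 0.0704). Uhrf1 was called in the 7 libraries, and Dnmt1, Dnmt3b and Ezh1 were not (adjusted p = 0.115, 0.213 and 0.114 by edgeR). The 3 lower calls became 1 without either YISO B6 library. The higher call was lost without OISO B6 replicate 1, 3 or 5, OISO BoyJ replicate 1 or YISO B6 replicate 1.

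Of 87 tested nuclear genes of oxidative phosphorylation, 4 were called lower (Ndufs8, Cox5a, Ndufa12 and Ndufa4), 75 were negative and the median was -0.23. The share called lower over all genes tested was 1.16%. Ndufs8, an iron-sulphur subunit of complex I, was at 47.2, 54.9, 65.3 and 71.4 CPM in YISO and at 26.7, 31.3 and 34.6 CPM in OISO (-1.06, SE 0.16, adjusted p = 0.00296 by edgeR). The summed share was 0.525% to 0.571% in OISO and 0.583% to 0.683% in YISO. The count of 4 was 2 without YISO BoyJ replicate 1, YISO B6 replicate 1 or OISO B6 replicate 1, 2, 3 or 5, and 1 without YISO B6 replicate 2. Ndufs8 was called in the 7 libraries, and Cox5a, Ndufa12 and Ndufa4 were not (adjusted p = 0.17, 0.215 and 0.295 by edgeR). Of 13 mitochondrially encoded genes 0 were called (median -0.10) and of 80 ribosomal protein genes 0 were called (median -0.01).

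Of 12 genes listed as lower in aged stem cells, 11 were tested, 4 were called lower and all 11 were negative, with a median of -0.70. This list too was chosen with earlier results of these data known, so its counts are not an independent check. Ebi3, a subunit of interleukins 27 and 35, was at 19.6, 24.5, 30.9 and 18.4 CPM in YISO and at 2.59, 7.67 and 9.40 CPM in OISO (-2.10, SE 0.35, adjusted p = 0.00661 by edgeR). Cd37, a tetraspanin of leukocytes, was at 10.5, 12.0, 30.3 and 14.8 CPM in YISO and at 4.66, 6.39 and 9.57 CPM in OISO (-1.49, SE 0.32). The other 2 were Arhgap30, a GTPase-activating protein (-0.77), and Dnmt3b. The 4 fell to 2 without OISO B6 replicate 5 or YISO B6 replicate 1, and to 0 in the 7 libraries (adjusted p = 0.0572 for Ebi3 and 0.106 to 0.213 for the others, by edgeR).

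By log2 fold change the 12 largest falls, under the same limit of abundance, were Nlrp10 (-3.09), Pkib (-2.77), Cd86 (-2.70), Rgs7bp (-2.57), Camk1d (-2.20), Ebi3 (-2.10), Abcf2 (-1.98), Evl (-1.87), Enah (-1.66), Ankle1 (-1.49), Cd37 (-1.49) and Thg1l (-1.39). Cd86, the costimulatory ligand of CD28, was at 4.25, 4.13, 8.07 and 7.55 CPM in YISO and at 0.198, 1.02 and 1.57 CPM in OISO (adjusted p = 0.0419 by edgeR). Camk1d, a calcium/calmodulin-dependent kinase, was at 22.7, 40.02, 31.5 and 47.1 CPM in YISO and at 3.18, 7.71 and 16.7 CPM in OISO (adjusted p = 0.00854). Evl and Enah, paralogous actin regulators of the Ena/VASP family, both fell. Abcf2 rests on the young B6 libraries, at 113 and 244 CPM, since the young BoyJ libraries at 37.2 and 33.8 CPM lay within the old range of 19.9 to 38.3 CPM. Of the 12 falls, Abcf2 and Camk1d were called in the 7 libraries, and the other 10 were not, with adjusted p-values of 0.0572 (Ebi3) to 0.206 (Cd86) by edgeR.

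**Figure D4:**
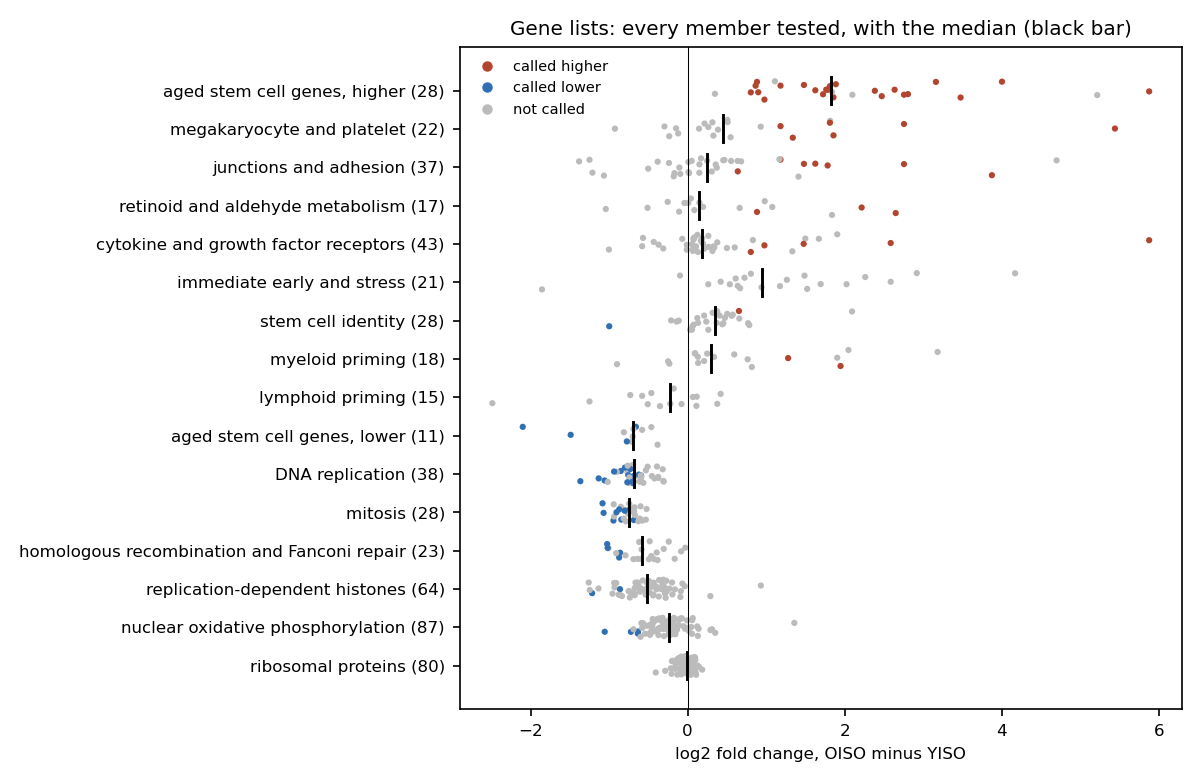
Log2 fold change (OISO minus YISO) of every tested member of 16 gene lists, with the number tested in brackets and a black bar at the list median. Red marks genes called higher, blue genes called lower, grey genes not called. Aged stem cell genes lie to the right of 0 with a median of 1.83, and all replication, mitosis and recombination genes lie to the left.

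Stress and immune response lists gave no call. Immediate early genes, which dissociation and sorting can induce, had 19 of 21 tested members on the positive side with a median of 0.94 and 0 called. Jun was at 75.3, 174, 88.2 and 117 CPM in YISO and at 114, 210 and 374 CPM in OISO (0.94, adjusted p = 0.185 by edgeR), and Egr1 spread from 86.5 to 462 CPM within OISO. The summed share was 0.0425% to 0.0807% in YISO and 0.0633% to 0.196% in OISO, and its part in other results was not tested. Of 31 interferon response genes 0 were called, with a median of 0.17; of 20 antigen presentation genes 0, with a median of -0.02; and of 17 genes of the NF-kB pathway 0, with a median of -0.03. Rel, an NF-kB subunit, was lower in OISO without overlap but not called (-0.73, adjusted p = 0.0567). Of 19 p53 pathway genes, 24 chaperone and unfolded protein response genes, 23 autophagy and FoxO genes and 18 Hox genes, 0 were called. The chaperone list took 1.56% of the counts in YISO B6 replicate 2 and 0.921% to 1.09% in every other library. Its part in the calls that were lost without that library was not tested. Of 19 clock genes 1 was called, and that call was kept without OISO B6 replicate 4 or YISO BoyJ replicate 2 and lost without any other single library and in the 7 libraries.

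The age difference of joined mice was set beside that of unjoined mice, old (OCNT, 4 libraries: 3 B6 of 22 months and 1 BoyJ of 21 months) and young (YCNT, 7 libraries of 8 to 12 weeks: 3 B6 and 4 BoyJ), in 1 fit of 21 libraries matched by title. In 3 of the 7 young unjoined libraries title and description disagree. The sides share no library, though the fit shares a strain term and an estimate of spread. Of 15057 genes tested, 0 differed between joined and unjoined mice in their age effect after adjustment by edgeR (0% called). An unadjusted p under 0.05 by edgeR was found for 1028, a threshold that about 5% of genes pass when no gene differs. DESeq2 called 39 and limma-voom 0. In unjoined mice 347 genes (2.3%) were called higher and 165 (1.1%) lower with age. Of the 260 risers of joined mice, 255 were also positive in unjoined mice with a median of 1.07, and 141 were called there. Of the 165 fallers, 150 were negative with a median of -0.44, and 38 were called. Since the genes were picked in joined mice, the larger medians there (1.72 and -0.77) follow in part from the choice.

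**Figure D5:**
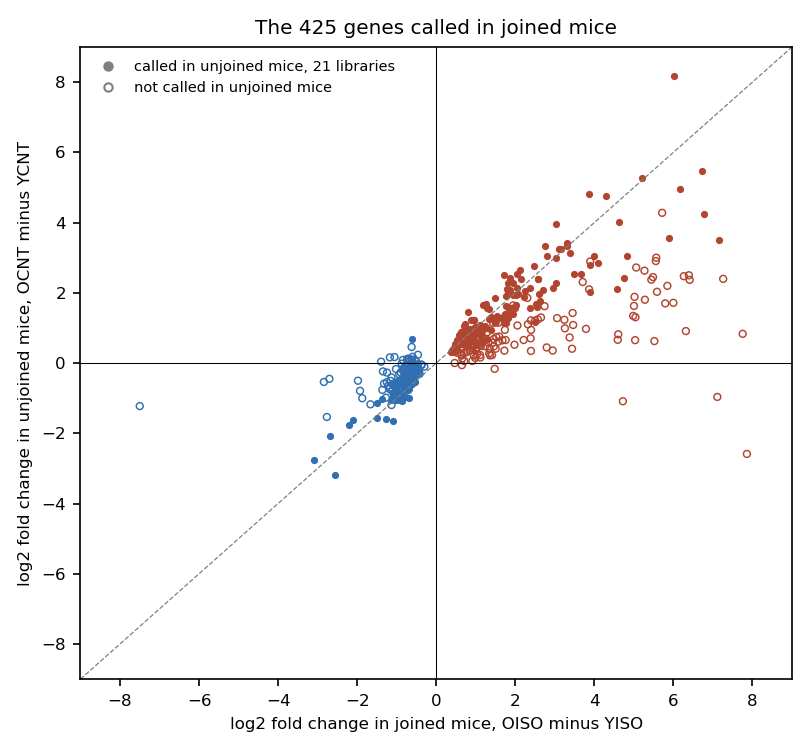
Log2 fold change with age in unjoined mice (OCNT minus YCNT) against joined mice (OISO minus YISO) for the 425 genes called in joined mice. Filled points were also called in unjoined mice, and the dashed line marks equal values. Most points share a sign, with 255 of 260 risers and 150 of 165 fallers on the same side.

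Values on both sides were close for some leading genes and apart for others. The log2 fold change of Clca3a1 was 3.16 in joined and 3.26 in unjoined mice, that of Bmpr1a 2.59 and 2.40, that of Jam2 1.78 and 2.10, and that of Selp 2.76 and 3.33. Each of the 12 largest rises was smaller in unjoined mice. Smaller values there follow in part from the choice, since genes were called, and the 12 ranked, in joined mice. Osmr was at 5.88 in joined and 3.57 in unjoined mice (unadjusted p = 0.00715, adjusted p = 0.637 for the difference by edgeR) and Emp2 at 5.04 and 1.30 (unadjusted p = 0.0037, adjusted p = 0.632). Rarb was at 2.65 and 1.30. Among fallers, Ndufs8 was at -1.06 in joined and 0.17 in unjoined mice and Ndufa12 at -0.72 and -0.01, and Thg1l at -1.39 and 0.04.

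The smallest interaction p-values above that limit of abundance belonged to Ide, Rpn1 and Nrp2 in the negative direction. Ide, the insulin-degrading enzyme, was at 231 ± 39 CPM (SD, n = 6) in OISO and 345 ± 77.9 (SD, n = 4) in YISO, but at 387 ± 78.9 (SD, n = 4) in OCNT and 253 ± 57.9 (SD, n = 7) in YCNT. Its difference between age effects was -1.21 on the log2 scale (SE 0.22, unadjusted p = 1.46e-05, adjusted p = 0.22 by edgeR). For Rpn1, a subunit of oligosaccharyltransferase, it was -0.96 (SE 0.21), and for Nrp2, a semaphorin and VEGF co-receptor, -2.46 (SE 0.60). In the positive direction stood Isl1 (5.62), Oas2 (2.47) and Zfp689 (1.78). Isl1, a LIM homeobox factor, was at 3.93 ± 2.85 CPM (SD, n = 6) in OISO and 0.16 ± 0.135 (SD, n = 4) in YISO, against 0.764 ± 0.887 (SD, n = 4) in OCNT and 1.593 ± 1.119 (SD, n = 7) in YCNT. The adjusted p of each of these other 5 genes lay between 0.615 and 0.632, so they are given as values.

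Promoters show the sequence in front of genes that moved together. The following are from RefSeq on GRCm38.p6, 300 bases around the start of the gene in RefSeq, 5′ to 3′ on the gene's strand. That start can differ from the start in the GENCODE coordinates given above. The windows of Bmpr1a and Gda lie inside the coordinates given for those genes. The first 4 are the risers with the smallest adjusted p that have an entry. Rrm1 and Ube2c were picked after seeing that they hold the letters discussed. Capitals mark matches on either strand to the 8 motifs searched. The GATA motif was searched as AGATAA and the ETS motif as CCGGAAG. The AP-1 motif was TGACTCA, the RUNX motif was TGTGGTT and the E2F motif was TTCCCGC. The CCAAT box, the TATA box as TATAAA and the E-box as CACGTG completed the set. A CCAAT box on the other strand reads ATTGG.
Clca3a1, chr3:144760928-144761227, minus strand: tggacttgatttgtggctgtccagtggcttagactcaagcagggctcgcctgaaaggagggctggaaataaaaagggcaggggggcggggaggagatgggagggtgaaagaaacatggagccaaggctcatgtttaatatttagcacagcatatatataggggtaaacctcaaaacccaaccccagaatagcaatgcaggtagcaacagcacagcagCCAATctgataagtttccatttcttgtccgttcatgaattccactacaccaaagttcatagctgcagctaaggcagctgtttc
Bmpr1a, chr14:34502497-34502796, minus strand: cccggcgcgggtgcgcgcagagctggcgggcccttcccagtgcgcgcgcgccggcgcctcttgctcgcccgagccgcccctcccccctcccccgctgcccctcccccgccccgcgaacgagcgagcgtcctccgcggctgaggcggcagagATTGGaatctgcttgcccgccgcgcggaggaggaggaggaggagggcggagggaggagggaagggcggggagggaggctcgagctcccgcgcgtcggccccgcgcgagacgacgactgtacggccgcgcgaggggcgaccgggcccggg
Gda, chr19:21472612-21472911, minus strand: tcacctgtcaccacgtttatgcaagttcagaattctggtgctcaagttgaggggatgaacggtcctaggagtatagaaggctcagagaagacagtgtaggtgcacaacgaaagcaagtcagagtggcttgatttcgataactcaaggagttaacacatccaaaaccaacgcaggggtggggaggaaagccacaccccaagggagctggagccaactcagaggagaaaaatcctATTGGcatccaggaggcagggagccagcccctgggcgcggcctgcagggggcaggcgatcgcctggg
Alcam, chr16:52453032-52453331, minus strand: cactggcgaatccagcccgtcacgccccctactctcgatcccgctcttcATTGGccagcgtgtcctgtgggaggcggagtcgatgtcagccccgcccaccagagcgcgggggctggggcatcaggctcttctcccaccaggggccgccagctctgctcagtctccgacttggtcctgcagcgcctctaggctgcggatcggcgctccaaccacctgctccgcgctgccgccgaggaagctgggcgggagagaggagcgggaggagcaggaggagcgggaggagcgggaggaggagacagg
Rrm1, chr7:102441445-102441744, plus strand: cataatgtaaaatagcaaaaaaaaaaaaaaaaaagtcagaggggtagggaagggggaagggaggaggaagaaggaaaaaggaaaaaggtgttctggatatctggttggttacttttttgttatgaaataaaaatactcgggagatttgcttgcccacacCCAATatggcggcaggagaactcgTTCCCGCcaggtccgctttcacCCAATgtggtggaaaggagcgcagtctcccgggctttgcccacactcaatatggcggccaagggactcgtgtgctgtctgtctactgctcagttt
Ube2c, chr2:164769679-164769978, plus strand: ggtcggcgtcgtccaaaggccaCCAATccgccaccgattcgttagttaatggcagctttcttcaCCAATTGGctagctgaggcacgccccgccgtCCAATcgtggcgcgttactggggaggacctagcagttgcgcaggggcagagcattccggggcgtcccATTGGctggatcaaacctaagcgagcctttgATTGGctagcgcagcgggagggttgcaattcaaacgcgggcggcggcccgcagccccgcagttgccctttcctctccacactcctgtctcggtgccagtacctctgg

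Each of the 4 risers held a single match, to CCAAT, in a different place, 17 to 201 bases before the RefSeq start. Rrm1 held an E2F match between 2 CCAAT matches, and Ube2c held 6 CCAAT matches, of which 2 on opposite strands overlap. Over lists, TTCCCGC stood in 5 of 11 promoters of called replication genes (45.5%), in 8 of 19 of the replication genes not called (42.1%), and in 4.66% of all 27025 promoters. CCAAT stood in 20 of 24 mitosis promoters (83.3%) and in 37.9% of all promoters. Of the genes called lower, 136 of 165 had an entry, of which 15.4% held TTCCCGC and 55.1% CCAAT. Of those called higher, 191 of 260 had an entry, of which 5.76% and 34.6% did. A match is a description of letters and not evidence of binding.

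In the authors' deposited table of this comparison, 507 of 17329 genes with an adjusted p had one under 0.05, 364 of them higher in OISO and 143 lower. It shares 225 genes with the 425 called here, which is 52.9% of the calls here and 44.4% of theirs, and all 225 had the same direction. They comprise 163 risers and 62 fallers.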

How the data were processed

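RNA from sorted stem cells (PicoPure) was made into libraries with Nugen's Ovation Trio kit, per the labels' protocols. Salmon, DESeq2, FastQC, MultiQC and GRCm38 are named in the submitters' processing notes. The authors deposited estimated counts, already whole, for 17562 genes in 30 columns. They also deposited, per the file headers, a table per comparison with a mean signal, a log2 fold change, a test score and p-values; of these only counts of calls are given. One column (1 of 30) whose code is in no title was not used.

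Columns were matched by the code in the title. Counts were rounded and tested with edgeR 4.0.16 in R 4.3.3 (TMM, filterByExpr, robust quasi-likelihood, strain term, 7 residual degrees of freedom). The SE was obtained by dividing each log2 value by the square root of its F statistic. The interaction used 21 libraries (16 degrees of freedom). P-values measure the spread between samples that the labels list separately, and partners were not modelled, so p-values may be too small. Within each group, every pair of libraries differed by a chi-square of at least 26.5 per degree of freedom, so by more than counting error. This cannot tell apart mice from separate preparations of the same mouse, and pairs across groups were not compared. On simulated data with 14278 genes the old against young fit found 45 of 100 genes altered 2-fold and 89 of 100 altered 4-fold, and 9 of its 143 calls were false; the interaction fit found 37 and 75, and 9 of 121 were false. Shares have Wilson intervals, for counting error only.

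The members, gene lists, tests and naming rule were chosen with earlier results of these data known, and several lists hold genes reported for these comparisons before. Named genes are the 12 largest rises and falls among called genes that average 1 or more in log2 CPM and have an established symbol, up to 4 called members per list by adjusted p (or up to 2 by abundance where none was called), 7 genes of prior interest, and 3 interaction genes per direction by p. Members outside this rule, such as the uncalled genes given with a log2 value only, were named after their values were seen. Symbols and coordinates are from GENCODE M21 (17547 genes matched). Alternatives were DESeq2 1.42.0, limma-voom (limma 3.58.1), RLE factors, no filter, no strain term, other sets of libraries, B6 only, a 2-fold minimum, matching by description, and leaving out each library. Values of some members of the gene lists are not reported here, although they stay in the counts and medians.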

Additional observations from a re-analysis of the deposited data

Results flagged for a closer look

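Dixon's test at its 95% level was run on 64 groups of libraries, and 10 held a library apart from the others. The values were CPM of the named genes with the largest changes, and list shares. Chance alone sets a library apart in about 5% of groups only where values are normally distributed. Several of these genes were close to absent in young libraries, so the 10 groups cannot be compared with that share. Where a single library holds every count of a gene in its group, as for Limch1 in YISO, the test must set it apart.

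Among old libraries, Adgrg6 stood at 9.15 CPM and Tmem215 at 24.5 CPM in OISO B6 replicate 4, Dlk1 at 37.6 CPM in OISO B6 replicate 1, Pkib at 3.77 CPM in OISO B6 replicate 5 and Evl at 4.21 CPM in OISO BoyJ replicate 1, each the highest of its group. Among young libraries, YISO BoyJ replicate 2 was the highest for Il10ra (0.53 CPM), Synpo (0.606 CPM) and Tmem215 (1.89 CPM), and YISO BoyJ replicate 1 held the only Limch1 count (0.0376 CPM). The mitosis share of 1.02% in YISO B6 replicate 1 stood apart from the other 3 young libraries.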

How the results depend on the processing

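No paired analysis was possible because the labels give no replicate numbers or partners. Against 425 genes called old against young, 84 were called in the 7 libraries on which labels meet, 120 with columns matched by description, 1195 by DESeq2, 208 by limma-voom, 233 with all 29 title-matched libraries in 1 fit, 116 with 19 agreeing libraries in 1 fit, and 43 with a 2-fold minimum. Leaving out each library gave 206 to 481. Higher calls were 260 of 425 in the fit reported, 105 of 120 by description, 77 of 84 in 7 libraries, 107 of 116 in 19, and 42 of 43 with the 2-fold minimum. B6 alone gave 472 calls, 247 higher and 225 lower. For the difference between joined and unjoined mice, 0 genes were called in the fit reported, 1 by description, 39 by DESeq2 and 6 in B6 alone, and leaving out each library gave 0 to 1. Of 87 called named genes, 0 changed sign under any alternative run and 15 were called under every one (Agtr1a, Alcam, Bmpr1a, C4b, Clca3a1, Clu, Enpp5, Gda, Gpr183, Jam2, Kcnb2, Klrb1c, Osmr, Selp and Trpc1); 31 were called in the 7 libraries. The cause of these differences was not tested, except that fewer libraries enter some fits. Alternative runs share libraries with the fit reported, so a kept sign is not an independent check. On simulated data, drawn without strain effects or linked partners, the fit recovered 45 of 100 genes changed 2-fold. Many differences of that size may thus go uncalled, though the rate in the real data may differ.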
